A study of Mus musculus with 8 samples.

Results

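Integrins, ICAMs, cadherins and claudins are the adhesion molecules with which a blood progenitor holds on to matrix, stroma and other cells. On these mouse arrays the group was taken as every gene whose name in the scanner annotation begins with Itga, or is Itgb, Icam, Cdh or Cldn followed by a number. The names gave 75 genes of the 27373 gene names on the array: 17 integrin α chains, 8 integrin β chains, 4 ICAMs, 23 cadherins and 23 claudins. Each gene was read from its brightest probe. The tests took a probe in if the scanner software marked it as well above background on 2 or more of the 8 arrays. By that filter 41 of the 75 genes were tested, among 16316 genes in all.

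EBF1 is a transcription factor without which B-cell development stops before commitment. All samples were c-Kit+ fetal liver cells of Ebf1-/- C57Bl/6 mice, enriched on magnetic beads and plated on OP9 stromal feeder cells with 5 ng/ml IL-7, 10 ng/ml Flt3 ligand and 10 ng/ml SCF. They received a pMys retrovirus that carried GFP together with EBF1-H240A (Ebf1-H240A, 3 arrays), GFP together with unmutated EBF1 (Ebf1wt, 3 arrays) or only GFP (Empty, 2 arrays). GFP+ cells were sorted 36 h later. In EBF1-H240A an alanine replaces a histidine, a change known to weaken binding of EBF1 to CNOT3 in CCR4-NOT, a complex that removes poly(A) tails from mRNA. Both proteins were supplied from a viral vector to cells with no intact Ebf1 gene, so every group shares that deletion. Whether the replicates are separate cultures or animals is not in the labels. The p-values therefore cover the spread of these samples only, and part or all of it may be technical.

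An integrin is a pair of an α and a β chain, and the pair decides what it binds. The β2 integrins of leukocytes bind ICAMs, α4β1 binds VCAM-1 and fibronectin, α4β7 binds MAdCAM-1 and αEβ7 binds E-cadherin. Platelet αIIbβ3 binds fibrinogen, αv pairs bind vitronectin, and α3 and α6 pairs bind laminin. Cadherins join like cells through their own kind and are tied to actin by catenins, and claudins seal tight junctions between epithelial cells. In lymphoid progenitors the α4 and β2 integrins are known for holding cells to marrow stroma.

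Of the integrins, the sequences shown first are those of the probes for the αE and αIIb chains, which had the largest decreases of the group. Both Itgae probes are given because they lie in different parts of the gene and their differences can be compared. Capitals are not used, since no base of a probe is singled out. In the annotation of the scanner files, which refers to mm9, the first Itgae probe lies at chr11:72959105-72960563 on the + strand, the second at chr11:72945236-72946221 on the + strand, and the Itga2b probe at chr11:102319453-102319661 on the - strand. Each probe has 60 bases, whereas these spans cover 1459, 986 and 209 bases, so all 3 probes were placed across a gap in the genome.
Itgae, brighter probe: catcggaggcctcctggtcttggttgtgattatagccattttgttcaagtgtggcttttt
Itgae, other probe: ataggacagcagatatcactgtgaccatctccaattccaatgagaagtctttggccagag
Itga2b: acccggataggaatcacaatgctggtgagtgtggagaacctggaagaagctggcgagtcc

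Promoters are shown for Itgb7 and Itga2b, which were lower with both EBF1 proteins, and for Itgb5, which was higher with both. EBF1 is known to bind a palindrome that reads TCCC, then any 2 bases, then GGGA. In RefSeq windows of GRCm38.p6, from 250 bases before to 50 after a gene's start, 51 of the 75 members matched, with 63 promoters. The full palindrome was present in 1 of them (1.59%), that of Cldn4, which was not tested, and in 0.904% of all 32851 promoters. A shorter core, CCCNNGGG, was chosen after the values had been seen. It was present in 15 of the 63 member promoters (23.8%) and in 13.7% of all promoters, and 7 of the 26 tested members with a promoter held it. The core reads the same on both strands and lies inside the full palindrome. The windows of Itgb7 (chr15:102231886-102232185, - strand) and Itga2b (chr11:102469834-102470133, - strand) held it 14 and 4 bases before the start, shown in capitals. The window of Itgb5 (chr16:33829415-33829714, + strand) did not hold these letters, and neither did those of Itgam, Itgax, Itga8 and Itgb1, which were also lower with both proteins. Of the other tested members with the core, Itga4 was lower with both proteins and Cldn3, Cldn7, Cldn15 and Icam5 did not pass a test in any comparison. A match is a description of sequence and not a measured site.
Itgb7: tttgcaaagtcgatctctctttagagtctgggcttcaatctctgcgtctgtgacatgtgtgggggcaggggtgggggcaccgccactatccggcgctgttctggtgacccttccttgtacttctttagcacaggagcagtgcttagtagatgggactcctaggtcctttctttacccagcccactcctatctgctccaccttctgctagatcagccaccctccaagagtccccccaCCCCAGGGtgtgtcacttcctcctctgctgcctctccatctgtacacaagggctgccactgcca
Itga2b: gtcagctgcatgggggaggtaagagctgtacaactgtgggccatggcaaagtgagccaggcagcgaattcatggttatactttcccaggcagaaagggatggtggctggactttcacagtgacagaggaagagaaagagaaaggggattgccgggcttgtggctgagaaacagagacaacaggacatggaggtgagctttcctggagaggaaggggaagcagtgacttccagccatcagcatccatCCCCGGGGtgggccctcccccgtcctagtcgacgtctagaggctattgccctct
Itgb5: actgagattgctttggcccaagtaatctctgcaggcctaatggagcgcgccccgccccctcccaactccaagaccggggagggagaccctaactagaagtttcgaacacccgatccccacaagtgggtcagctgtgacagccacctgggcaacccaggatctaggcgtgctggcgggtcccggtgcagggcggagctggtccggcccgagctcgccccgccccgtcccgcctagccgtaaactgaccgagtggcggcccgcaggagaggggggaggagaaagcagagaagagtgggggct

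The share of probes well above background was 54.6% to 59.6% per array, with 0 saturated spots, and the 75th percentile of intensity before scaling was 232 to 326. The arrays of a group correlated at r = 0.991 to 0.995 across genes, which are not independent replicates. The Ebf1 probe had log2 signals of 10.16 to 10.44 with Ebf1-H240A, 10.18 to 10.20 with Ebf1wt and 10.11 to 10.19 with Empty and did not pass a test in any comparison, so it checks neither the labels nor the amount of protein supplied. B-lineage markers separated the groups: of 6 tested, 5 rose with Ebf1-H240A and 6 with Ebf1wt against Empty. Of 9 progenitor markers 8 were tested, and 3 rose and 4 fell with Ebf1-H240A, while 3 rose and 2 fell with Ebf1wt. Kit and Cd34 fell and Lmo2 and Ly6a rose with both proteins. Signals of a list were summed before log2 was taken, here and below, so the brightest gene weighs most (Ly6a for this list). The log2 of the sum over all 8 was 16.34 to 16.43 with Ebf1-H240A, 16.37 to 16.46 with Ebf1wt, and 16.24 and 16.21 with Empty. These are bulk samples, in which fewer cells of a type and less RNA per cell cannot be told apart. The arrays lay on 2 slides, each with all 3 groups, and within-slide values are given below.

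The families differed in how many members were measurable. Of the integrins, 13 of 17 α chains and 6 of 8 β chains were well above background on all 8 arrays, and so were 3 of the 4 ICAMs. Only 4 of 23 cadherins and 5 of 23 claudins were. Not tested were Itga2, Itga9, Itga10, Itgb6 and Icam4, the cadherin genes Cdh2, Cdh4, Cdh5, Cdh7, Cdh9, Cdh12, Cdh15, Cdh16, Cdh18, Cdh19, Cdh22, Cdh24 and Cdh26, and the claudin genes Cldn1, Cldn2, Cldn4, Cldn5, Cldn6, Cldn8, Cldn10, Cldn11, Cldn13, Cldn16, Cldn17, Cldn18, Cldn19, Cldn22, Cldn23 and Cldn26. Of these 34 genes, 30 were well above background on none (0) of the arrays and 4 (Itga9, Cdh22, Cdh26 and Cldn19) on 1. Among them were the endothelial cadherin gene Cdh5, the neural cadherin gene Cdh2 and Cldn5, a claudin of endothelium. Another 10 genes were tested although some of their arrays were not above background: Itga8, Itgb8, Cdh3, Cdh6, Cdh8, Cdh10, Cdh20, Cdh23, Cldn3 and Cldn7.

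**Figure D1:**
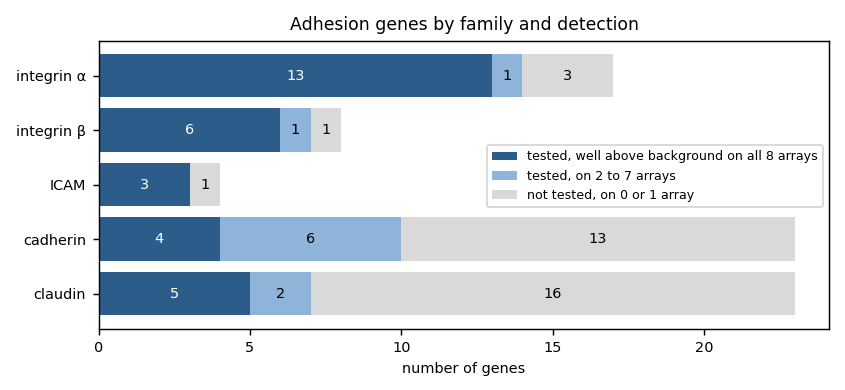
Number of genes in each adhesion family by detection (bars, x axis in genes): dark blue, tested and well above background on all 8 arrays; light blue, tested with fewer arrays above background; grey, not tested. Integrins and ICAMs are mostly dark, with 13 of 17 α chains and 6 of 8 β chains, while 13 of 23 cadherins and 16 of 23 claudins were not tested.

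A gene is called changed at an adjusted p under 0.05 in limma's moderated test on all 8 arrays, with Benjamini-Hochberg adjustment over the 16316 genes. Against Empty, 25 of the 41 tested members changed with Ebf1-H240A (61.0%), where 44.6% of all genes did. The members split into 8 that rose and 17 that fell, while 21.6% of all genes rose and 23.0% fell. With Ebf1wt against Empty, 24 members changed (58.5%, against 38.4% of all genes), 7 of them higher and 17 lower, where 17.2% of all genes rose and 21.2% fell. The median log2 difference of the members was -0.40 with Ebf1-H240A and -0.24 with Ebf1wt, beside -0.00 and -0.04 for all genes. Because dim genes are less often called, the shares were also read over genes well above background on all 8 arrays: 23 of 31 members (74.2%, against 47.6% of all such genes) with Ebf1-H240A and 22 of 31 (71.0%, against 40.9%) with Ebf1wt. These 2 comparisons share the Empty arrays. Within each slide, all 25 and all 24 called members kept their direction, and with slide as a term in the model 24 and 22 were still called. The exceptions were Itga1 in both comparisons (adjusted p = 0.0584 and 0.0608 in limma) and Cdh17 with Ebf1wt (adjusted p = 0.0501).

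By family, the integrin α chains had the largest share of calls. With Ebf1-H240A against Empty, 5 of 14 α chains rose and 8 fell, and with Ebf1wt 4 rose and 8 fell. Of 7 tested β chains, 1 rose and 4 fell in each comparison. Of 3 ICAMs, 1 fell in each. Of 10 cadherins, 1 rose and 3 fell in each, and of 7 claudins, 1 rose and 1 fell in each. By at least 1 on the log2 scale, which is 2-fold, 5 members rose and 8 fell with Ebf1-H240A, where 6.64% of all genes rose and 3.41% fell by as much (10.0% in either direction). With Ebf1wt 5 members rose and 7 fell by as much, where 5.67% of all genes rose and 2.80% fell (8.47% in either direction). The arrays did not overlap with those of Empty in 27 members with Ebf1-H240A (65.5% of all genes) and in 26 with Ebf1wt (61.3% of all genes).

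**Figure D2:**
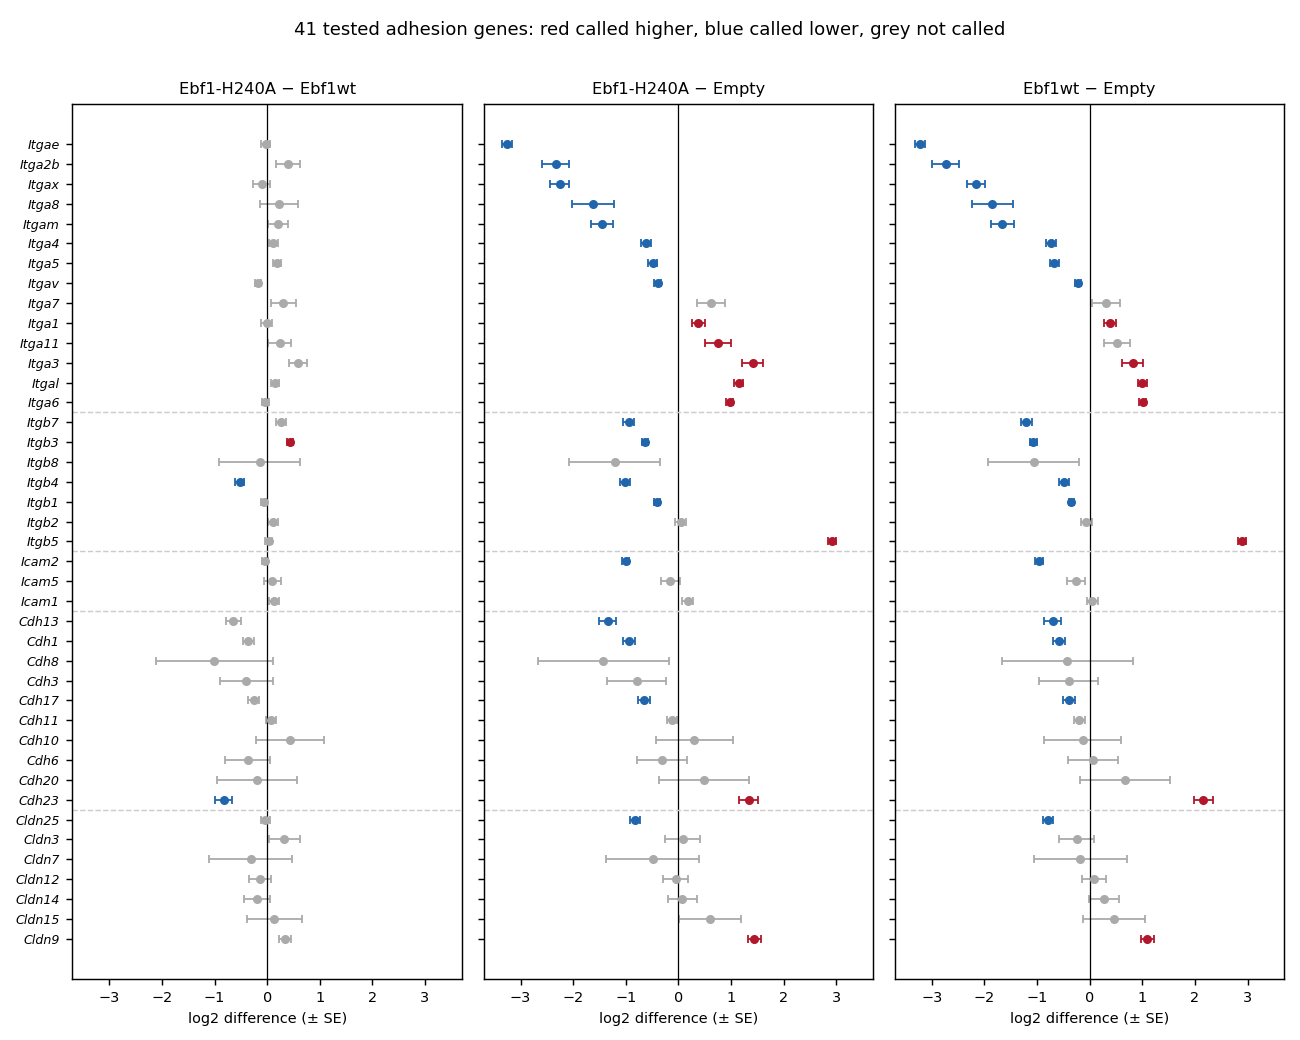
Log2 difference with its SE (x axis) for the 41 tested genes (rows, by family, dashed lines between families) in Ebf1-H240A minus Ebf1wt, Ebf1-H240A minus Empty and Ebf1wt minus Empty; red, called higher; blue, called lower; grey, not called. In both comparisons with Empty the points run from about -3.2 for Itgae to 2.9 for Itgb5, while Ebf1-H240A minus Ebf1wt has 3 coloured points.

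The αE chain had the largest decrease of the group. Itgae, whose product pairs with β7 on mucosal lymphocytes and some dendritic cells, had log2 signals of 6.37, 6.63 and 6.44 with Ebf1-H240A, 6.49, 6.45 and 6.59 with Ebf1wt, and 9.81 and 9.67 with Empty. Every array with an EBF1 protein lay about 3 log2 units below both Empty arrays. The decrease was 9.57-fold with Ebf1-H240A (-3.26 ± 0.10 SE, adjusted p = 2.47e-06 in limma) and 9.38-fold with Ebf1wt (-3.23 ± 0.10, adjusted p = 2.62e-06). The second probe printed above gave differences of -3.41 and -3.27, so both parts of the gene moved by nearly the same amount. The samples also differed in T and innate lymphoid markers, of which 5 of 7 fell with each protein. The log2 of their summed signals was 13.81 to 14.16 with Ebf1-H240A, 14.16 to 14.47 with Ebf1wt, and 14.51 and 14.43 with Empty. Thy1, the brightest of them, did not pass in either comparison. Without Thy1 the log2 of the sum was 11.69 to 11.95 with Ebf1-H240A, 11.72 to 11.76 with Ebf1wt and 13.11 to 13.21 with Empty. The part of such cells in the result was not tested.

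Its partner β7 fell less. Itgb7 had log2 signals of 13.41, 13.46 and 13.53 with Ebf1-H240A, 13.12, 13.17 and 13.33 with Ebf1wt, and 14.55 and 14.27 with Empty. The 3 groups did not overlap, and its signal fell by 0.94 ± 0.11 with Ebf1-H240A (adjusted p = 0.000568) and by 1.20 ± 0.11 with Ebf1wt (adjusted p = 0.000246). Itga4, the α chain that pairs with β7 or β1, had 13.09, 13.16 and 13.13 with Ebf1-H240A, 12.91, 12.94 and 13.18 with Ebf1wt, and 13.69 and 13.81 with Empty. It fell by 0.62 ± 0.10 and by 0.74 ± 0.10, and both Empty arrays were above all others. Itga4 has 6 kept probes, whose differences ran from -0.62 to 0.01 with Ebf1-H240A and from -0.74 to -0.43 with Ebf1wt. With their mean in place of the brightest probe, the decrease with Ebf1-H240A was no longer called (-0.35, adjusted p = 0.0785).

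Itgb1, the β chain shared by α1, α3, α4, α5, α6, α8 and αv among others, moved by a small amount. Its log2 signals were 8.20, 8.18 and 8.14 with Ebf1-H240A, 8.26, 8.23 and 8.21 with Ebf1wt, and 8.58 and 8.58 with Empty. The arrays of a group lay so close together that a difference of -0.41 ± 0.05 with Ebf1-H240A (adjusted p = 0.00114) and of -0.35 ± 0.05 with Ebf1wt (adjusted p = 0.00287) was called. A second Itgb1 probe gave -0.33 and -0.00, and with the mean of the probes the call with Ebf1wt was lost (-0.18, adjusted p = 0.119). Itga5, whose chain forms the fibronectin receptor with β1, fell by 0.49 ± 0.08 with Ebf1-H240A and by 0.67 ± 0.08 with Ebf1wt.

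The β2 family of leukocyte integrins split by α chain. Itgal, the α chain of LFA-1, which binds ICAMs on other cells, had log2 signals of 11.71, 11.79 and 11.75 with Ebf1-H240A, 11.56, 11.51 and 11.75 with Ebf1wt, and 10.54 and 10.66 with Empty. It rose 2.21-fold with Ebf1-H240A (1.15 ± 0.09, adjusted p = 0.000105) and by 1.00 ± 0.09 on the log2 scale with Ebf1wt (adjusted p = 0.000229), and its second probe gave 1.30 and 1.05. Itgam and Itgax, which encode other α chains of the family, moved the opposite way. Itgam, the α chain of Mac-1 on myeloid cells, had 8.16, 7.57 and 8.31 with Ebf1-H240A, 7.78, 7.96 and 7.68 with Ebf1wt, and 9.38 and 9.55 with Empty. Itgax, known as CD11c of dendritic cells, had 8.37, 7.99 and 8.57 with Ebf1-H240A, 8.22, 8.49 and 8.52 with Ebf1wt, and 10.54 and 10.59 with Empty. In both genes the lowest Empty array lay a full log2 unit or more above the highest array with EBF1.

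Itgam fell by 1.45 ± 0.22 with Ebf1-H240A (adjusted p = 0.00185) and by 1.66 ± 0.22 with Ebf1wt (adjusted p = 0.00132), and its other probe by 1.48 and 1.54 (no test). Itgax fell by 2.26 ± 0.18 (adjusted p = 0.000114) and by 2.16 ± 0.18 (adjusted p = 0.00017). The 2 genes are neighbours on chromosome 7 with no protein-coding gene in between (0). Their common partner Itgb2 gave no such split, with 10.86, 10.71 and 11.03 in Ebf1-H240A, 10.69, 10.77 and 10.84 in Ebf1wt, and 10.76 and 10.90 in Empty. All 3 groups overlapped, and the 95% confidence interval was -0.21 to 0.30 with Ebf1-H240A and -0.32 to 0.19 with Ebf1wt. Of 7 other myeloid and dendritic markers 4 were tested. Against Empty, Mpo and Cd14 fell and Csf1r rose with both proteins. Lyz2, the brightest of the 4, rose with Ebf1-H240A (0.68 ± 0.20, adjusted p = 0.0322 in limma) and did not pass with Ebf1wt (-0.04 ± 0.20). The log2 of the sum over the 4 was 14.68 to 15.12 with Ebf1-H240A, 13.96 to 14.42 with Ebf1wt and 14.11 and 14.41 with Empty. Their part in the Itgam and Itgax values was not tested.

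**Figure D3:**
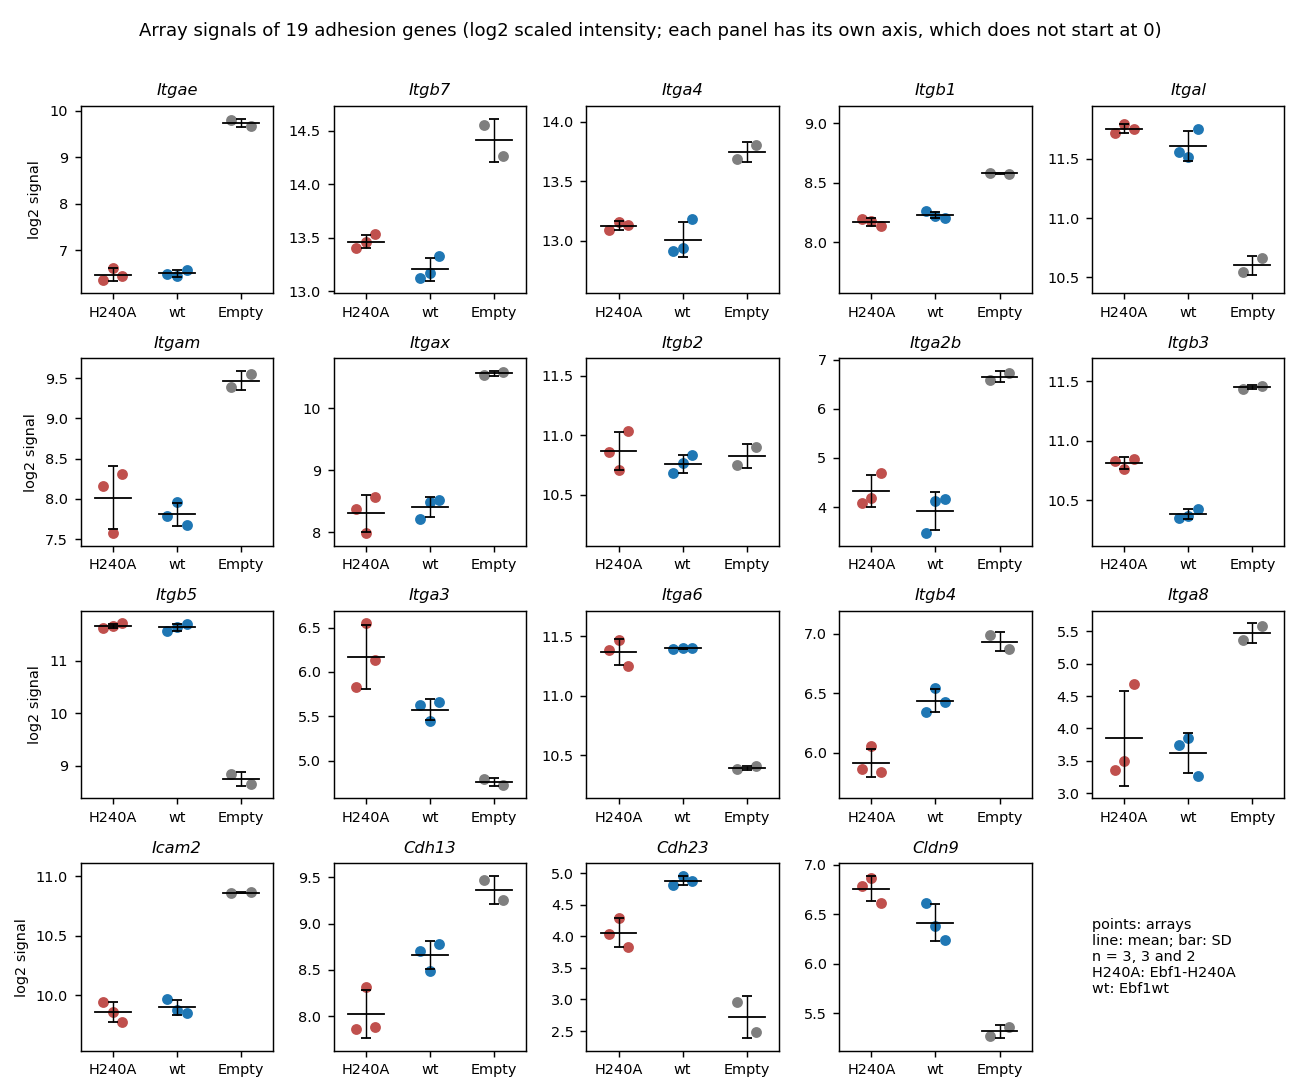
Log2 scaled signal of each array (y axis, separate for each gene and not starting at 0) for 19 adhesion genes in Ebf1-H240A (red, n = 3), Ebf1wt (blue, n = 3) and Empty (grey, n = 2), with the mean (line) and SD (bar). Itgae, Itgax, Itga2b and Itgam lie lower on all 6 arrays with EBF1, Itgb5, Itgal and Itga6 lie higher, and Itgb2 overlaps in all groups.

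The chains of the platelet integrin also fell, by different amounts. Itga2b (αIIb, the megakaryocyte and early progenitor chain CD41) had log2 signals of 4.07, 4.19 and 4.69 with Ebf1-H240A, 3.47, 4.12 and 4.17 with Ebf1wt, and 6.57 and 6.73 with Empty. The arrays with EBF1 overlapped one another and lay well under both Empty arrays, a decrease of 5.05-fold with Ebf1-H240A (-2.34 ± 0.26, adjusted p = 0.000537) and 6.66-fold with Ebf1wt (-2.74 ± 0.26, adjusted p = 0.000334). Other megakaryocyte markers did not follow it. Of 7 listed, Gp1ba, Pf4 and Ppbp were too dim to be tested, and among those tested Gp9 and Gp1bb rose with Ebf1-H240A and Gp9 rose with Ebf1wt. For the 4 tested markers the log2 of the sum was 7.36 to 7.76 with Ebf1-H240A and 7.18 to 7.37 with Ebf1wt. It was 6.20 and 6.19 with Empty. Mast cell precursors are known to carry αIIb, αE and β7 as well. Of 6 mast cell markers 2 were tested, of which Cpa3 had a mean log2 signal of 3.23 with Ebf1-H240A, 3.45 with Ebf1wt and 6.97 with Empty and fell (differences of -3.74 ± 0.22 and -3.52 ± 0.22), while Hdc did not pass, and Mcpt4, Mcpt8, Ms4a2 and Fcer1a were too dim to be tested. The summed log2 signal of Cpa3 and Hdc was 7.60 to 8.63 with Ebf1-H240A, 7.98 to 8.20 with Ebf1wt, and 8.71 and 8.67 with Empty, and the part of either cell type in these values was not tested.

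Itgb3, the partner of αIIb and αv, had 10.83, 10.76 and 10.85 with Ebf1-H240A, 10.35, 10.36 and 10.43 with Ebf1wt, and 11.44 and 11.46 with Empty. The 3 groups formed separate steps, with Ebf1-H240A between Ebf1wt and Empty. Itgb3 fell by 0.64 ± 0.06 with Ebf1-H240A (adjusted p = 0.000242) and by 1.07 ± 0.06 with Ebf1wt (adjusted p = 3.13e-05). Its second probe did not show the decrease and gave 0.06 with Ebf1-H240A and -0.22 with Ebf1wt.

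Among the vitronectin receptor chains, β5 had the largest increase of the adhesion genes. Itgb5, which pairs with αv, had log2 signals of 11.62, 11.66 and 11.71 with Ebf1-H240A, 11.56, 11.65 and 11.70 with Ebf1wt, and 8.84 and 8.65 with Empty. The 6 arrays with EBF1 lay within a narrow band, nearly 3 log2 units above Empty. It rose 7.57-fold with Ebf1-H240A (2.92 ± 0.08, adjusted p = 1.82e-06) and 7.41-fold with Ebf1wt (2.89 ± 0.08, adjusted p = 1.86e-06). Its only kept probe lies at chr16:33949123-33949182 in mm9. The αv gene did not rise with it: Itgav fell by 0.40 ± 0.07 with Ebf1-H240A and by 0.22 ± 0.07 with Ebf1wt (adjusted p = 0.0342), although another, dim probe that was above background on 4 arrays gave 0.88 and 1.30. Itgb8, another partner of αv, was not above background on all arrays and its differences of -1.21 ± 0.86 and -1.06 ± 0.86 did not pass.

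Integrin β5 is also made by stromal cells such as the OP9 feeder layer, although feeder cells that took up no virus should be removed by the GFP+ sort. Of 13 stromal markers 11 were tested, and 6 rose with Ebf1-H240A and 5 with Ebf1wt, with none (0) lower. The log2 of their summed signals was 13.73 to 14.04 with Ebf1-H240A, 14.04 to 14.40 with Ebf1wt, and 13.87 and 13.81 with Empty. The brightest of them was Thy1, which T-lineage cells also express. Without Thy1 the log2 of the sum was 11.30 to 11.34 with Ebf1-H240A, 10.96 to 11.19 with Ebf1wt, and 10.12 and 10.02 with Empty. Pdgfrb, a receptor of mesenchymal cells, rose by 1.95 ± 0.09 and 1.54 ± 0.09. Pdgfra and Lum were too dim to be tested. Cdh11, a cadherin of mesenchymal cells and a member of the group, had 9.09, 9.12 and 9.18 with Ebf1-H240A, 8.91, 9.04 and 9.22 with Ebf1wt, and 9.33 and 9.18 with Empty, and its 95% confidence intervals of -0.36 to 0.12 and -0.44 to 0.04 against Empty contained 0. These values rest on 1 of its 3 probes. The others were well above background on 0 of the 8 arrays (mean log2 signals of 0.65 and 0.36), so the Cdh11 signal is uncertain. The part of stromal RNA in the Itgb5 value was not tested.

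Of the laminin receptor α chains, Itga6 and Itga3 rose. Itga7, also a laminin receptor chain, differed by 0.62 ± 0.27 with Ebf1-H240A and by 0.32 ± 0.27 with Ebf1wt. It did not pass (adjusted p = 0.104 and 0.404 in limma). Itga6, which pairs with β1 or β4, had log2 signals of 11.38, 11.47 and 11.25 with Ebf1-H240A, 11.40, 11.40 and 11.40 with Ebf1wt, and 10.38 and 10.41 with Empty. It rose by 0.97 ± 0.07 with Ebf1-H240A (adjusted p = 0.000101) and by 1.01 ± 0.07 with Ebf1wt (adjusted p = 0.000108), and its other 2 probes gave 0.93 to 1.24 and 0.92 to 0.99. Itga3 had 5.83, 6.55 and 6.13 with Ebf1-H240A, 5.63, 5.44 and 5.66 with Ebf1wt, and 4.79 and 4.73 with Empty. It rose by 1.41 ± 0.19 with Ebf1-H240A (adjusted p = 0.00135) and by 0.82 ± 0.19 with Ebf1wt (adjusted p = 0.0161), while its 2 dimmer probes gave 0.26 to 0.41. The call with Ebf1wt was lost without either Empty array (adjusted p = 0.0682 and 0.0795).

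The β4 chain, which pairs with α6 alone and anchors epithelial cells to laminin, fell. Itgb4 had 5.86, 6.05 and 5.84 with Ebf1-H240A, 6.34, 6.54 and 6.43 with Ebf1wt, and 6.99 and 6.88 with Empty. As with Itgb3, the groups formed separate steps, but here Ebf1-H240A was the lowest. The decrease was 1.02 ± 0.10 with Ebf1-H240A (adjusted p = 0.000262) and 0.49 ± 0.10 with Ebf1wt (adjusted p = 0.00716). Its second probe, which overlaps the first, gave -1.29 and -0.51. Without the first Empty array the call with Ebf1wt was lost (-0.44, adjusted p = 0.0526).

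The remaining α chains were dim or moved little. Itga8, which forms a receptor of kidney and smooth muscle matrix with β1, had 3.36, 3.50 and 4.69 with Ebf1-H240A, 3.74, 3.86 and 3.27 with Ebf1wt, and 5.37 and 5.58 with Empty. It fell by 1.62 ± 0.40 with Ebf1-H240A (adjusted p = 0.0153) and by 1.85 ± 0.40 with Ebf1wt (adjusted p = 0.0109). The calls were lost without 1 Empty array (adjusted p = 0.0576 and 0.0822 with Ebf1-H240A, 0.0641 with Ebf1wt), and the third Ebf1-H240A array stood above the other two. Of the collagen receptor chains, Itga1 rose by 0.38 ± 0.12 in both comparisons, with probes that disagreed in sign. Itga11 rose by 0.75 ± 0.25 with Ebf1-H240A (adjusted p = 0.0447) and differed by 0.51 ± 0.25 with Ebf1wt (adjusted p = 0.149).

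**Figure D4:**
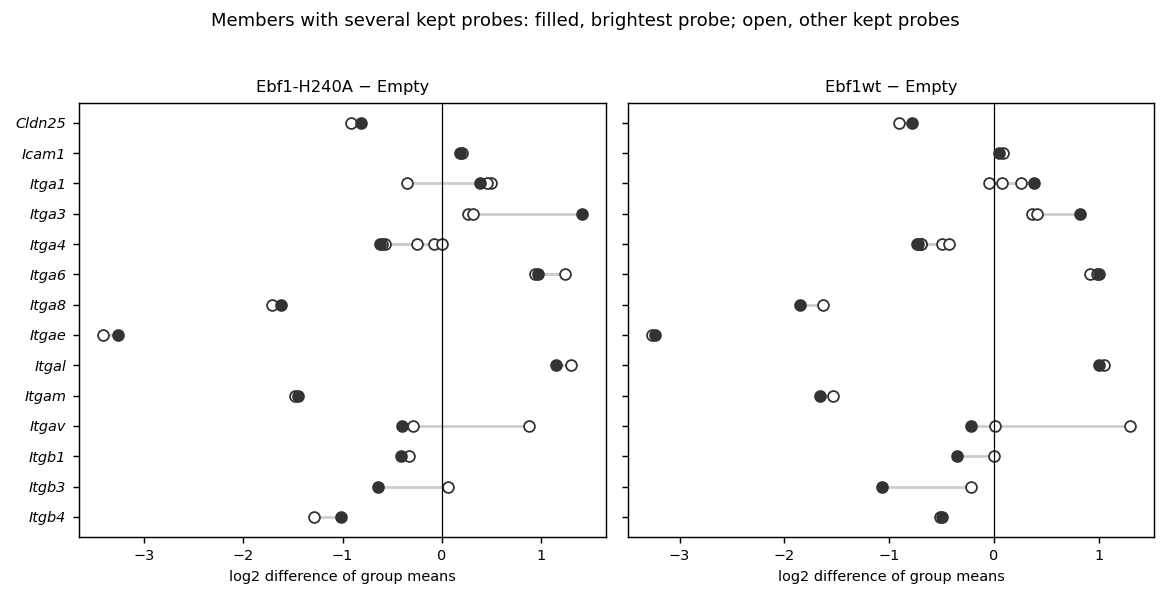
Log2 difference of group means (x axis) for each kept probe of the 14 members with several kept probes (rows), in Ebf1-H240A minus Empty and Ebf1wt minus Empty; filled, the brightest probe; open, the other kept probes. The probes of Itgae, Itga6, Itga8, Itgal, Itgam and Itgb4 lie close together, while those of Itgav, Itgb3, Itga3 and Itga1 spread.

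The ICAMs are immunoglobulin-like ligands of the β2 integrins. Icam2, carried by endothelium and leukocytes, had log2 signals of 9.95, 9.86 and 9.78 with Ebf1-H240A, 9.97, 9.88 and 9.85 with Ebf1wt, and 10.86 and 10.87 with Empty. It was lower on all 6 arrays with EBF1, by 1.00 ± 0.07 with Ebf1-H240A (adjusted p = 8.17e-05) and by 0.96 ± 0.07 with Ebf1wt (adjusted p = 0.000122). Icam1, which inflammatory signals induce, averaged 11.89 ± 0.13 with Ebf1-H240A, 11.76 ± 0.11 with Ebf1wt and 11.71 ± 0.10 with Empty (SD, n = 3, 3 and 2), with differences against Empty of 0.18 ± 0.10 and 0.05 ± 0.10 that did not pass. Of 6 endothelial markers listed, Tek, Tie1 and Emcn were too dim to be tested. Of Pecam1, Kdr and Esam none (0) passed with Ebf1-H240A, and Esam rose with Ebf1wt. With Ebf1-H240A the differences were -0.01 ± 0.06 for Pecam1, 0.31 ± 0.18 for Esam and -0.76 ± 0.26 for Kdr. The Kdr value was just short of the threshold (adjusted p = 0.0503 in limma), and with Ebf1wt Kdr differed by 0.17 ± 0.26.

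Of the cadherins, Cdh13, Cdh1 and Cdh17 fell and Cdh23 rose. Cdh13 (T-cadherin, which is held by a lipid anchor and lacks the catenin-binding tail) had log2 signals of 7.86, 8.32 and 7.88 with Ebf1-H240A, 8.71, 8.49 and 8.78 with Ebf1wt, and 9.47 and 9.26 with Empty. Its groups did not overlap, and it fell by 1.35 ± 0.17 with Ebf1-H240A (adjusted p = 0.000809) and by 0.71 ± 0.17 with Ebf1wt (adjusted p = 0.0151). The second of these calls was lost without the first Empty array (-0.60, adjusted p = 0.0953). A second Cdh13 probe was well above background on 0 of the 8 arrays (mean log2 signal of 1.28). Cdh1 encodes E-cadherin, the ligand of αEβ7. It had 10.03, 10.23 and 9.88 with Ebf1-H240A, 10.46, 10.29 and 10.45 with Ebf1wt, and 10.99 and 10.98 with Empty, and fell by 0.94 ± 0.11 and 0.58 ± 0.11. Cdh17, an intestinal cadherin also made by B cells, fell by 0.65 ± 0.12 and 0.40 ± 0.12.

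Cdh23, known for the tip links of hair cells in the inner ear, had 4.04, 4.30 and 3.83 with Ebf1-H240A, 4.81, 4.95 and 4.88 with Ebf1wt, and 2.96 and 2.48 with Empty. All 3 groups stood apart, with Ebf1wt highest, and the probe was well above background on every array with EBF1 and on 1 of the 2 Empty arrays. It rose by 1.34 ± 0.18 with Ebf1-H240A (adjusted p = 0.00109) and by 2.16 ± 0.18 with Ebf1wt (adjusted p = 0.000168). The other 6 tested cadherins, Cdh11 and the dim Cdh3, Cdh6, Cdh8, Cdh10 and Cdh20, did not pass in any comparison.

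In the claudin family 2 genes changed. Cldn9, a tight-junction claudin, had 6.79, 6.87 and 6.62 with Ebf1-H240A, 6.61, 6.38 and 6.24 with Ebf1wt, and 5.27 and 5.37 with Empty. It lay above Empty on every array with EBF1 and rose 2.71-fold with Ebf1-H240A (adjusted p = 0.000183) and 2.14-fold with Ebf1wt (adjusted p = 0.000764), with an SE of 0.13 on the log2 scale in both. The gene named Cldn25 on the array matches Cldnd1, a claudin-domain gene, by its accession in RefSeq, and the untested Cldn26 matches Tmem114, so both are claudins by the array's name only. It had 10.69, 10.68 and 10.69 with Ebf1-H240A, 10.61, 10.65 and 10.90 with Ebf1wt, and 11.55 and 11.47 with Empty, and fell by 0.82 ± 0.09 and 0.79 ± 0.09. Its second probe gave -0.91 in both comparisons. The other 5 tested claudins (Cldn3, Cldn7, Cldn12, Cldn14 and Cldn15) did not pass in any comparison. Of 7 epithelial and hepatocyte markers, Alb, Afp, Ttr and Apoa1 were too dim to be tested. Of the 3 tested, Krt8 fell with both proteins (differences of -1.60 ± 0.26 and -1.69 ± 0.26), Epcam rose with both (at least 1.84-fold and at least 3.64-fold) and Krt18 did not pass.

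The comparison of Ebf1-H240A with Ebf1wt asks which of these values depend on the exchanged histidine. Of the 41 members 3 changed (7.32%), where 6.36% of all genes did: Itgb3 rose, and Itgb4 and Cdh23 fell (3.64% of all genes rose and 2.72% fell). The share is close to that of all genes. Itgb3 was 0.43 ± 0.05 higher with Ebf1-H240A than with Ebf1wt (adjusted p = 0.00828), Itgb4 was 0.52 ± 0.09 lower (difference -0.52, adjusted p = 0.019) and Cdh23 was 0.83 ± 0.16 lower (difference -0.83, adjusted p = 0.0294). Within slides 1 and 2 the differences were 0.43 and 0.46 for Itgb3, -0.59 and -0.55 for Itgb4, and -0.79 and -1.01 for Cdh23, and all 3 were still called with slide in the model. With normexp background correction Itgb4 (-0.25, adjusted p = 0.205) and Cdh23 (-0.21, adjusted p = 0.429) were no longer called. Only the Itgb3 call held whichever array was left out. The Itgb4 call was lost without Ebf1wt array 2 or 3 or Ebf1-H240A array 1 or 3 (adjusted p = 0.0522 to 0.0727), and the Cdh23 call without any of the Ebf1wt arrays or without Ebf1-H240A array 1 or 3 (adjusted p = 0.0693 to 0.0973). The count of called members was then 1 or 2, and it was 5 without Ebf1-H240A array 2.

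For most other members the arrays bound the difference between the 2 proteins. None (0) of the 41 was called with a difference of 1 or more on the log2 scale, where 0.662% of all genes were called higher and 0.417% lower by as much (1.08% in all). The difference for Itgae was -0.03, with a 95% confidence interval of -0.23 to 0.18, and for Itgb5 0.03, with an interval of -0.14 to 0.20. Intervals were -0.04 to 0.33 for Itgal, -0.25 to 0.66 for Itgam, -0.48 to 0.27 for Itgax, -0.15 to 0.96 for Itga2b, -0.19 to 0.12 for Itga6 and -0.19 to 0.11 for Icam2. Of the 38 members that did not pass, 27 had an interval that stayed within 1 log2 unit of 0 in both directions. In the other 11 the interval reached beyond it, and 9 of those were not well above background on all 8 arrays. Cdh13 was nearest to the threshold, with a difference of -0.64 ± 0.15 and an interval of -0.99 to -0.29 (adjusted p = 0.0536). It passed with normexp background correction (-0.53, adjusted p = 0.00377), with quantile normalization (adjusted p = 0.0469) and in the deposited table (adjusted p = 0.0248). It also passed among probes well above background on all arrays (adjusted p = 0.0279) and without Ebf1-H240A array 2 (adjusted p = 0.0241). Itgb7 (0.26 ± 0.10, adjusted p = 0.168), Itga3 (0.59 ± 0.17, adjusted p = 0.0992) and Cdh1 (-0.35 ± 0.10, adjusted p = 0.0883) had groups that did not overlap without passing the test. Such separation was seen in 13 of the 41 members and in 29.9% of all genes.

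Of 26 cytoplasmic adaptors and signalling genes of integrins 24 were tested, and 6 rose and 5 fell with Ebf1-H240A against Empty, with a median of 0.09 beside -0.00 for all genes. With Ebf1wt 7 rose and 5 fell, with a median of -0.00 beside -0.04. Of all genes, 21.6% rose and 23.0% fell with Ebf1-H240A, and 17.2% rose and 21.2% fell with Ebf1wt. Between the proteins 6.36% of all genes were called. These shares also apply to the ligand, catenin and tight junction lists below. Rasgrp2, which encodes CalDAG-GEFI, the exchange factor that activates Rap1 ahead of integrins, rose by 1.89 ± 0.12 with Ebf1-H240A (adjusted p = 5.27e-05) and by 1.94 ± 0.12 with Ebf1wt (adjusted p = 5.86e-05). Tln2, a talin gene, rose by 1.12 ± 0.11 with Ebf1-H240A. Between the proteins, Fermt3 (kindlin-3) and Pxn (paxillin) rose and Parvb and Parvg (parvins) fell. Parvb had a mean log2 signal of 2.90 with Ebf1-H240A, 5.06 with Ebf1wt and 3.59 with Empty, so it was 2.16 ± 0.22 lower with Ebf1-H240A than with Ebf1wt (difference -2.16, adjusted p = 0.00457) and rose by 1.47 ± 0.25 with Ebf1wt against Empty (adjusted p = 0.00399).

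Of 20 extracellular integrin ligands 9 were tested. Against Empty, 5 rose with each protein, and Mfge8 fell with Ebf1-H240A, with medians of 0.57 and 0.65. The von Willebrand factor gene Vwf, a ligand of αIIbβ3, rose by 2.09 ± 0.25 with Ebf1-H240A (adjusted p = 0.000772) and by 2.91 ± 0.25 with Ebf1wt (adjusted p = 0.000231). Nid1, a basement membrane protein, rose by 1.99 ± 0.17 and 1.18 ± 0.17, and the laminin gene Lama5 by 0.91 ± 0.12 and 1.06 ± 0.12. Nid1 was also the only ligand called between the proteins, 0.81 ± 0.15 higher with Ebf1-H240A (adjusted p = 0.0281). Vcam1 and Fn1, ligands of α4β1, had differences of 0.57 ± 0.35 and 0.48 ± 0.27 with Ebf1-H240A that did not pass. The stromal markers above moved in the same samples, and their part in these values was not tested.

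Of 13 catenins and other cadherin partners 11 were tested, and 6 rose and 3 fell with Ebf1-H240A (median 0.24), and 5 rose and 2 fell with Ebf1wt (median 0.14). The plakophilin gene Pkp3, a desmosome component, was below the detection flag on both Empty arrays and was at least 6.98-fold higher with Ebf1-H240A (adjusted p = 3.17e-05) and at least 5.07-fold higher with Ebf1wt (adjusted p = 8.52e-05). Such a bound sets the mean of the brighter group against the lowest signal well above background on each dim array, or the probe's own signal where that is higher. Pkp1 was at least 1.66-fold and at least 3.86-fold higher. Arvcf, a catenin of the p120 family, rose by 1.52 ± 0.15 with Ebf1wt and was 1.04 ± 0.13 lower with Ebf1-H240A than with Ebf1wt (difference -1.04, adjusted p = 0.00954). Ctnnd2, of the same family, fell by 1.18 ± 0.11 with Ebf1-H240A and by 0.98 ± 0.11 with Ebf1wt. Of 15 tight junction partners of the claudins 6 were tested, and 2 rose and 1 fell with each protein. Cgnl1 was at least 1.47-fold and at least 1.70-fold higher, and Tjp3 fell by 0.69 with Ebf1-H240A and by 0.37 with Ebf1wt.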

How the data were processed

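RNA of sorted GFP+ cells, 0.2 ug per sample, was hybridised to 8 one-colour Agilent arrays, and scanned spots were quantified in Agilent Feature Extraction (version 10.5.1.1 in the submitters' processing notes). Each deposited spot has a processed intensity, linear, detrended and with surrogates for spots at background per the file headers, besides its mean and background intensities. Detection, saturation and outlier flags (0 or 1) stand in other deposited columns. The deposited series table holds log2 values with medians of 4.90 to 4.93, which correlated with the scanner values at r = 0.971 to 0.979. Its normalization and centring are not given in the sources used here, and it served as an alternative. Probe positions refer to mm9, per the file headers.

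Processed intensities of 43379 non-control spots were scaled to a common 75th percentile, values under 1 were set to 1, and log2 was taken. After removal of outlier spots and averaging per probe there were 41174 probes, of which 25007 passed the detection filter of 2 arrays, and 24 without a value on some array were left out. Differences were fitted with the lmFit and eBayes functions of limma 3.58.1, run in R 4.3.3 (two-sided, all 8 arrays, 5 residual degrees of freedom), and errors are standard errors (SE) of that model. The fit was tested on simulated data. Genes with a called difference of at least 1, and the partner chains Itgb1, Itgb2, Itgb3, Itgb7, Itga4, Itgal and Itgam, are given array by array, as are Cdh1, Cdh11 and Cldn25, which were added after their values were seen. Alternatives were normexp correction, quantile normalization, the deposited table, other probe filters, the mean over probes, slide, replicate number, fewer arrays and leaving out each array. Array number limits the precision. Some listed genes are not reported here by name. The members and lists were chosen with earlier results of these data known.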

Additional observations from a re-analysis of the deposited data

How the results depend on the processing

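The alternatives were run for 19 of the genes given array by array (not for Cdh1, Cdh11 and Cldn25), and of their 39 called results none changed direction. Outside the fits within 1 slide, 22 to 25 members were called for Ebf1-H240A against Empty and 19 to 23 for Ebf1wt against Empty. Of all genes, these settings called 20.5% to 50.9% with Ebf1-H240A and 16.2% to 44.2% with Ebf1wt. The lowest shares came with no filter on dim probes (75 members tested). The highest came with detection required on all arrays (31 members tested), and the other settings tested 41. The fits within slides 1 and 2 have 1 Empty array each and called 9 and 2 members for Ebf1-H240A against Empty, 1 and 4 for Ebf1wt against Empty, and 0 and 0 for Ebf1-H240A against Ebf1wt, where 5 and 10 had an unadjusted p under 0.05 in limma. Fewer arrays enter those fits. Across all genes they called 1096 and 322, 133 and 398, and 0 and 0, against 7274, 6266 and 1038 with all arrays. For Ebf1-H240A against Ebf1wt 1 member was called with no filter on dim probes, and leaving out 1 array at a time gave 1 to 5. In that comparison the calls across all genes were 338 with no filter, 360 with the replicate block, 646 with the slide block, 654 in the deposited table and 365 to 839 with 1 array left out. Replicate numbers did not pair the arrays: same-numbered arrays of different groups had deviations correlated at -0.33 to 0.19, over 0.1 in 2 of 7 pairs, and 1 of 8 arrays correlated best with its own number. With the replicate block, 1, 23 and 19 members were called for Ebf1-H240A against Ebf1wt, Ebf1-H240A against Empty and Ebf1wt against Empty. Of all genes, 2.21%, 36.3% and 29.5% were called in those fits.

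Some differences that were not called turned sign. For Ebf1-H240A minus Ebf1wt within slide 1 they were 0.0219 for Icam2, 0.0196 for Itga6, -0.429 for Itga8, 0.0513 for Itgae, -0.0967 for Itgam and -0.0038 for Itgb5, and within slide 2 0.198 for Itgax. Itgae was 0.0156 with normexp correction and Itga6 0.0776 with the mean over probes. Itgb2 was 0.0129 for Ebf1wt minus Empty within slide 1 and -0.0174 for Ebf1-H240A minus Empty with the replicate block. With 1 array left out, Ebf1-H240A minus Ebf1wt ran from -0.0827 to 0.0009 for Icam2, -0.0836 to 0.024 for Itga6, -0.196 to 0.467 for Itga8, -0.102 to 0.0263 for Itgae, -0.231 to 0.0594 for Itgax and -0.0075 to 0.0604 for Itgb5. Itgb2 ran from -0.0401 to 0.121 for Ebf1-H240A minus Empty and from -0.139 to 0.008 for Ebf1wt minus Empty. Outside the fits within 1 slide and beyond the losses given with the results, Itgb4 and Cdh23 were not called between the proteins without a filter or with the replicate block, nor Itgb3 (0.41, adjusted p = 0.0637) and Itgb4 in the deposited table. For Ebf1wt against Empty, Itgb4 was lost with normexp correction (-0.20, adjusted p = 0.193), Itga3 in the deposited table (0.54, adjusted p = 0.0572) and with the replicate block (adjusted p = 0.0559), and Cdh13 with the replicate block (adjusted p = 0.0622). The cause was not tested. Genes near the background, such as most cadherins and claudins, have wide intervals on 8 arrays.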

Other observations

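Other adhesion receptors of leukocytes, which are neither integrins nor ICAMs, were also read against Empty. Of all genes, 44.6% were called with Ebf1-H240A and 38.4% with Ebf1wt. Of 21 such genes 17 were tested, and 5 rose and 4 fell with Ebf1-H240A, while 6 rose and 3 fell with Ebf1wt. The tetraspanin gene Cd9, whose product associates with integrins in the membrane, rose by 1.14 ± 0.08 with Ebf1-H240A (adjusted p = 9.18e-05 in limma) and by 1.77 ± 0.08 with Ebf1wt (adjusted p = 1.7e-05). Epcam, below the detection flag on both Empty arrays, was at least 1.84-fold higher with Ebf1-H240A and at least 3.64-fold higher with Ebf1wt. Selplg, the selectin ligand PSGL-1, fell by 1.12 ± 0.09 and 0.90 ± 0.09, and Mcam by 2.14 ± 0.36 and 1.50 ± 0.36. Cd44, a hyaluronan receptor, rose by 0.54 and 0.38. Between the proteins, 0 of the 17 were higher and 3 were lower with Ebf1-H240A, where 3.64% of all genes were higher and 2.72% lower. The 3 were Epcam, Cd9 and Cd96 (differences of -0.98, -0.63 and -0.61), and Epcam was near the threshold (adjusted p = 0.0441 in limma).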
